A study of Mus musculus with 30 samples.

Results

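Old satellite cells that had not been injured were compared with satellite cells collected in the first 4 h after muscle injury, to see which part of the old uninjured transcriptome lay near early activation and which part did not. The comparison used 10 of the 30 libraries of the series. These were the 2 libraries labelled oQSC in the table of old cells and the 8 libraries labelled 0.5hpi, 1hpi, 2hpi and 4hpi (2 each) in the activation table, joined by Ensembl identifier without version. The 2 uninjured libraries of the activation table served as the reference for both sides.

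All of these libraries came from muscle stem cells of C57BL/6 skeletal muscle. The protocol text of every sample names barium chloride (BaCl2) injection of the hind limb as the injury and perfusion with paraformaldehyde (PFA), which fixes cells in the tissue, before isolation. The oQSC and uninjured libraries had no treatment, and the early libraries had BaCl2 injury 0.5, 1, 2 or 4 h before fixation. Only the word "old" separates the ages: the labels give no age in months, no sex and no pooling, and the early and uninjured libraries carry no age word. Separate animals are nowhere named for the libraries of a group, so p-values measure the spread between libraries, which may be technical. Age, injury and table changed together between oQSC and the early libraries, and their effects cannot be told apart.

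Satellite cells are the stem cells of skeletal muscle, and most lie in quiescence beside the myofibre under its basement membrane. Pax7 marks them, Notch signalling and the calcitonin receptor are known to keep them quiescent, and injury brings on immediate early transcription factors within minutes to hours, followed by Myod1. Fixing cells before the tissue is taken apart is meant to hold the in vivo transcriptome, since enzymatic isolation itself brings on stress and early response genes.

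Depth differed between the sides. The oQSC libraries held 44825828 and 47231676 counts, the early libraries 21726078 to 28301951 counts and the uninjured libraries 13511897 and 21381554 counts. Ribosomal RNA gene models took 0.393% and 0.541% of the oQSC counts, 4.53% to 11.6% of the early counts and 49.7% and 37.3% of the uninjured counts. Satellite repeat models took 21.1% and 18.8% of the oQSC counts and 2.35% of those of 2 h library 1, against at most 0.011% in the other early libraries. The part of these shares in the results below was not tested, apart from the fit without ribosomal, satellite and mitochondrial genes, which called 1646 genes where the full set called 1664. Values are given below in CPM, the count scaled to a library of fixed size after TMM normalization, and a gene is called when its edgeR quasi-likelihood test gave an adjusted p under 0.05 among 21209 genes.

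The old uninjured libraries resembled the early injured libraries more than the uninjured ones. Over the 2000 most variable genes, Pearson's r of log2 CPM was 0.286 and 0.344 between oQSC library 1 and the 2 uninjured libraries, and 0.305 and 0.362 for oQSC library 2. With the early libraries, r ran from 0.634 to 0.796 for oQSC library 1 and from 0.652 to 0.816 for library 2, so all 8 lay above both uninjured libraries. The 2 oQSC libraries had r = 0.95 with each other. Over all 21209 genes the gap was smaller, with r of 0.731 to 0.767 for the uninjured and 0.863 to 0.916 for the early libraries. These values describe genes within shared libraries and depend on depth and scaling. Within the early libraries r split each time: library 2 of 0.5, 1 and 4 h and library 1 of 2 h had r of 0.777 to 0.816, and their partners 0.634 to 0.712. The same libraries split in Myod1, in Pax7 and in the summed markers of some other cell types, whose values are given below. The part of this split in the results was not tested.

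**Figure D1:**
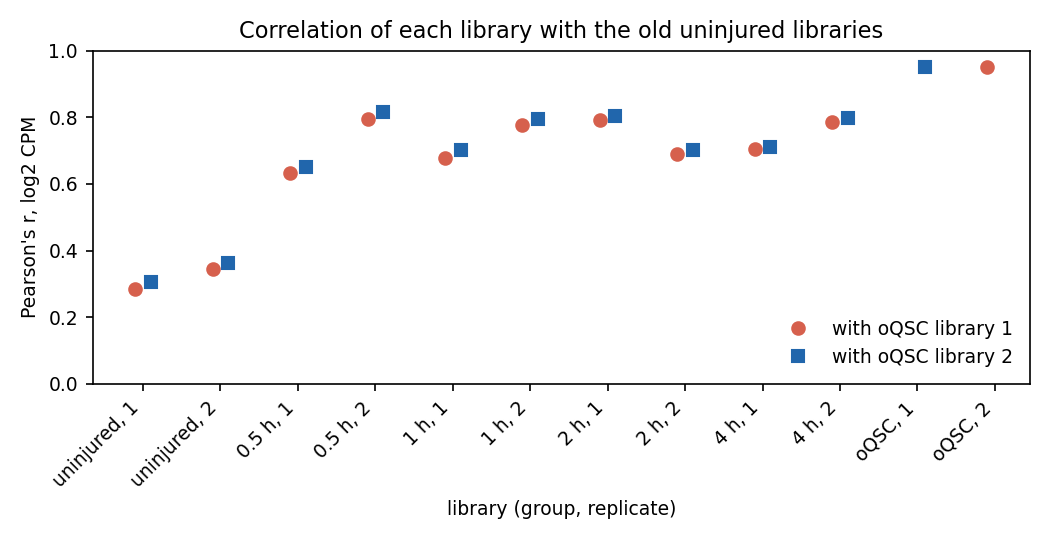
Pearson's r of log2 CPM over the 2000 most variable genes (vertical axis) between each library (horizontal axis) and oQSC library 1 (circles) or oQSC library 2 (squares). The 8 early libraries sit between 0.634 and 0.816, above the uninjured libraries at 0.286 to 0.362 and below the oQSC pair at 0.95; over all 21209 genes these ranges are 0.863 to 0.916 and 0.731 to 0.767.

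Across genes, 1664 of 21209 (7.85%) differed between oQSC and the mean of the 4 early times, 854 higher (4.03%) and 810 lower (3.82%) in oQSC, with a median log2 difference of -0.07 over all genes. Against the uninjured libraries, 5145 genes differed (24.3%), 2672 higher and 2473 lower in oQSC. The early libraries differed from the uninjured ones in 3588 genes (16.9%), 1710 higher and 1878 lower. These 3 comparisons share libraries with each other. For 14906 genes (70.3%) the oQSC values overlapped the range of the 8 early libraries, for 3276 (15.4%) both oQSC libraries lay above all 8, and for 3027 (14.3%) both lay below.

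The count of calls rested on both oQSC libraries. Without oQSC library 1 the comparison with the early mean called 23 genes, and without library 2 it called 65. These fits leave 1 oQSC library, assumed to vary like the other groups. How far the differences moved varied by gene. Over all alternatives Ctsb ran from 1.66 to 1.79, Hspa8 from 1.82 to 2.11 and Col4a1 from -1.87 to -1.67 on the log2 scale. Other called genes moved more, such as Junb from -4.34 to -1.86, Kcnk1 from 6.53 to 10.10 and Serpina3m from 4.96 to 8.22. Leaving out library 1 of 1 h, 2 h or 4 h gave 1014, 1098 and 1078 calls. Of the 90 called genes that belong to a gene list or are named below, 8 were called in every alternative fit: the higher Rhoh, Rrm2, Rrm1, Mcm4, Kcnk1 and Sfrp4 and the lower Qser1 and Mir703. Among them, Qser1 had no count in either oQSC library and passed the count filter through the early and uninjured libraries alone. Its calls therefore carry no independent weight. Without oQSC library 1 only these 8 of the 90 were still called, and without library 2 they were joined by Ccl11, Cyp26a1 and Dusp2. The comparison with the uninjured libraries called 1217 and 1856 genes without oQSC library 1 or 2, and 1384 and 2066 without uninjured library 1 or 2. The change from uninjured to early called 285 and 516 genes without uninjured library 1 or 2.

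Immediate early genes, which encode transcription factors and feedback regulators that are transcribed within minutes of a stimulus, were high in both the oQSC and the early libraries. Of 25 tested members, 20 were higher in oQSC than in the uninjured libraries (12.6% of all genes were) and 24 were higher in the early libraries than in the uninjured ones (8.06% of all genes), with none lower in either comparison. Between oQSC and the early mean, 1 member was higher and 3 were lower, against 4.03% and 3.82% of all genes, and for 20 of the 25 oQSC overlapped the early range, as it did for 70.3% of all genes. The median log2 difference of the list from the early mean was -0.23.

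Fos, the AP-1 subunit used most often as a marker of recent stimulation, had 2517 and 2695 CPM in oQSC, 2012 to 4243 CPM in the early libraries (median 2893) and 88.2 and 52.3 CPM in the uninjured ones. Its oQSC values thus lay inside the early range and far above both uninjured libraries. The log2 difference from the early mean was -0.23 (95% interval -0.94 to 0.49, adjusted p = 0.727). Egr1, a zinc finger factor, had 2435 and 3338 CPM in oQSC against 1067 to 4956 CPM (median 3364) early and 764 and 438 CPM uninjured. Ier2 had 1222 and 1521 CPM in oQSC, 1087 to 1964 CPM (median 1387) early and 50.4 and 44.3 CPM uninjured. Atf3, a stress-induced factor of the ATF/CREB family, had 314 and 401 CPM in oQSC, 85.4 to 575 CPM (median 273) early and 1.54 and 0.63 CPM uninjured. For Egr1, Ier2 and Atf3 too, oQSC overlapped the early range.

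The Jun genes, whose proteins pair with Fos in AP-1, were the exception. Jun had 123 and 236 CPM in oQSC and 735 to 2280 CPM (median 1208) in the early libraries, a log2 difference of -2.95 ± 0.69 (SE, adjusted p = 0.0341). Junb had 155 and 879 CPM in oQSC and 2382 to 6744 CPM (median 2892) early, a log2 difference of -2.63 ± 0.67 (adjusted p = 0.044). Jund had 26.5 and 30.5 CPM against 42.5 to 223 CPM (median 121) early, a log2 difference of -2.07 ± 0.49 (adjusted p = 0.0342). All 8 early libraries exceeded both oQSC libraries for the 3 genes. In the uninjured libraries Jun had 74.8 and 32.0 CPM, Junb 46.8 and 53.3 CPM and Jund 20.4 and 27.5 CPM. Junb alone of the 3 was called higher in oQSC than in uninjured cells (adjusted p = 0.0142). The oQSC libraries differed from each other by more for Junb than for Fos. None of the 3 Jun calls held without oQSC library 1, without oQSC library 2, or without 1 h library 1 or 2 h library 2.

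Dusp1, a phosphatase that switches off MAP kinases, was the member that was higher. It had 4438 and 4058 CPM in oQSC, 538 to 1692 CPM (median 1078) in the early libraries and 74.0 and 46.1 CPM in the uninjured ones, with no overlap between the 3 groups. The log2 difference from the early mean was 2.01 ± 0.43 (adjusted p = 0.0255), and the call was lost without oQSC library 1 or 2. Its relative Dusp2 went the other way, with 0.7 and 2.06 CPM in oQSC, 36.0 to 118 CPM (median 52.3) early and 2.26 and 0.809 CPM uninjured (log2 difference -5.39 ± 0.72, adjusted p = 0.00541, lost without oQSC library 1). Dusp2 was thus at the uninjured level in oQSC, while Dusp1 passed the early level. Of the 12 tested MAP kinase feedback genes, only Dusp1 was called higher and only Dusp2 lower, against 4.03% and 3.82% of all genes. The promoter of Dusp1 is shown because the gene stood apart from its list. The 250 bases before its start in the RefSeq annotation of GRCm38.p6, at chr17:26508473-26508722 on the minus strand, hold 1 cAMP response element (TGACGTCA, in capitals, a palindrome that reads the same on both strands).

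Dusp1: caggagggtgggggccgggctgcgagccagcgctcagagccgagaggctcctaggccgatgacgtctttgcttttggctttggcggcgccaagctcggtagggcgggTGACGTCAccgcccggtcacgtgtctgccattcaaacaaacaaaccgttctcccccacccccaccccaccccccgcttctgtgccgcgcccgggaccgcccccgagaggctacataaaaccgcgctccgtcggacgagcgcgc

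Of the 20 list members with a RefSeq promoter entry, 3 held this motif in that window (Btg2, Dusp1 and Maff), against 1.55% of 32851 promoters. A gene counted if any of its entries matched, while the percentage is over single entries, so the measures are unlike. Other motifs were searched as well. The CArG box was held by 2 of these 20 genes (1.47% of promoters). The heat shock element was held by 2 of 13 chaperone genes and 0 of 15 basement membrane genes (0.466%). A lysosomal E-box was held by 1 of 14 lysosome and autophagy genes (0.785%). A match is a description of the letters in the window.

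Few members of the other stress and signalling lists were called, where 7.85% of all genes were called and 70.3% overlapped the early range. For NF-kB and cytokine response genes, 12 of 22 were higher in oQSC than in uninjured cells (12.6% of all genes were). In the early libraries 9 of 22 were higher than in uninjured cells (8.06% of all genes). Between oQSC and the early mean 1 of 22 differed, with 19 of 22 overlapping. That gene was Birc3, an inhibitor of apoptosis that is a target of NF-kB, with 363 and 374 CPM in oQSC against 17.7 to 129 CPM (median 46.8) early (log2 difference 2.75 ± 0.51, adjusted p = 0.0156, lost without oQSC library 1 or 2). The neutrophil chemokine Cxcl1 had 2330 and 2131 CPM in oQSC inside an early range of 327 to 11116 CPM (median 2599), with 21.5 and 18.7 CPM in uninjured cells. Socs3, the feedback inhibitor of cytokine receptors, had 84.0 and 155 CPM in oQSC, below all 8 early libraries at 283 to 541 CPM (median 373), with an adjusted p of 0.0572.

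No member of the BMP and Id list, the integrated stress response list, the Nrf2 and metallothionein list, the p53 list or the ribosome biogenesis list was called between oQSC and the early mean. The median log2 differences of these lists were -0.23 (12 genes), -0.09 (15 genes), -0.35 (14 genes), 0.65 (14 genes) and -0.51 (25 genes). oQSC overlapped the early range for 9, 13, 13, 8 and 22 of these members. Of the 14 p53 targets, 5 lay above all 8 early libraries, where 15.4% of all genes did. At the same time 5, 6, 4, 5 and 1 members of these lists were higher in oQSC than in uninjured cells (12.6% of all genes were). In early cells 6, 7, 5, 6 and 1 were higher than in uninjured cells (8.06% of all genes). For ribosome biogenesis, 1 of 25 was a lower share than that of all genes in both comparisons. Id3, an inhibitor of myogenic factors, had 2998 and 3038 CPM in oQSC, 1083 to 2425 CPM (median 1664) early and 94.2 and 103 CPM uninjured. It lay above all 8 early libraries but missed the threshold (adjusted p = 0.0833). Atf4, the effector of the integrated stress response, had 304 and 358 CPM in oQSC, below all 8 early libraries at 501 to 899 CPM (median 737), with an adjusted p of 0.0838. Cdkn1a, which encodes the cell cycle inhibitor p21, had 1451 and 1251 CPM in oQSC, 67.5 to 984 CPM (median 641) early and 11.5 and 6.43 CPM uninjured (adjusted p = 0.259 against the early mean). Mt1, a metal-binding stress protein, had 5801 and 5477 CPM in oQSC, 116 to 3718 CPM (median 1703) early and 25.3 and 18.7 CPM uninjured (adjusted p = 0.149). Both lay above the early range without passing the test, whose error includes the wide spread of the early libraries.

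A part of the chaperone genes went past the early level in oQSC. Of 16 heat shock and chaperone genes, 6 were higher in oQSC than in the early mean (4.03% of all genes were) and none was lower. Both oQSC libraries lay above all 8 early libraries for 9 of the 16 (15.4% of all genes) and overlapped them for 7. The median log2 difference was 1.14. Against uninjured cells 15 of the 16 were higher in oQSC (12.6% of all genes), and 12 of 16 were higher in the early libraries (8.06%).

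Hspa8, the constitutive cytosolic HSP70, had 14629 and 12975 CPM in oQSC, 1996 to 5816 CPM (median 4207) early and 319 and 287 CPM uninjured (log2 difference from early 1.91 ± 0.39, adjusted p = 0.0211). Hspa5, the HSP70 of the endoplasmic reticulum, had 13532 and 12700 CPM in oQSC and 1070 to 4798 CPM (median 2976) early (2.23 ± 0.52, adjusted p = 0.034). Dnajb1, an HSP40 co-chaperone of the heat shock response, had 4338 and 4175 CPM in oQSC and 270 to 2151 CPM (median 648) early (2.46 ± 0.57, adjusted p = 0.0332). These 3 genes had no overlap between oQSC, early and uninjured libraries. Hsph1, a nucleotide exchange factor for HSP70, had 1902 and 1918 CPM in oQSC and 58.8 to 543 CPM (median 329) early (2.72 ± 0.72, adjusted p = 0.0495). Hspb8, a small heat shock protein that acts with Bag3, had 83.7 and 99.6 CPM in oQSC and 3.79 to 32.7 CPM (median 14.4) early (2.47 ± 0.60, adjusted p = 0.0379). Chordc1, an HSP90 co-chaperone, had 123 and 88.5 CPM in oQSC, 25.6 to 43.9 CPM (median 38.1) early and 29.9 and 39.9 CPM uninjured (1.52 ± 0.27, adjusted p = 0.0142). For Chordc1 the early and uninjured libraries overlapped, and both oQSC libraries lay above all of them.

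The inducible HSP70 genes were not called between oQSC and early cells. Hspa1a had 3037 and 4795 CPM in oQSC, inside an early range of 650 to 6323 CPM (median 2474), with 15.7 and 30.9 CPM in uninjured cells, and its log2 difference from the early mean was 0.5 (95% interval -1.34 to 2.34, adjusted p = 0.769). Hspa1a and Hspa1b are near-identical copies, so reads may have been split between them and both values are uncertain. No chaperone call held without oQSC library 1 or without oQSC library 2, and 3 of the 6 held without 1 h library 1.

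**Figure D2:**
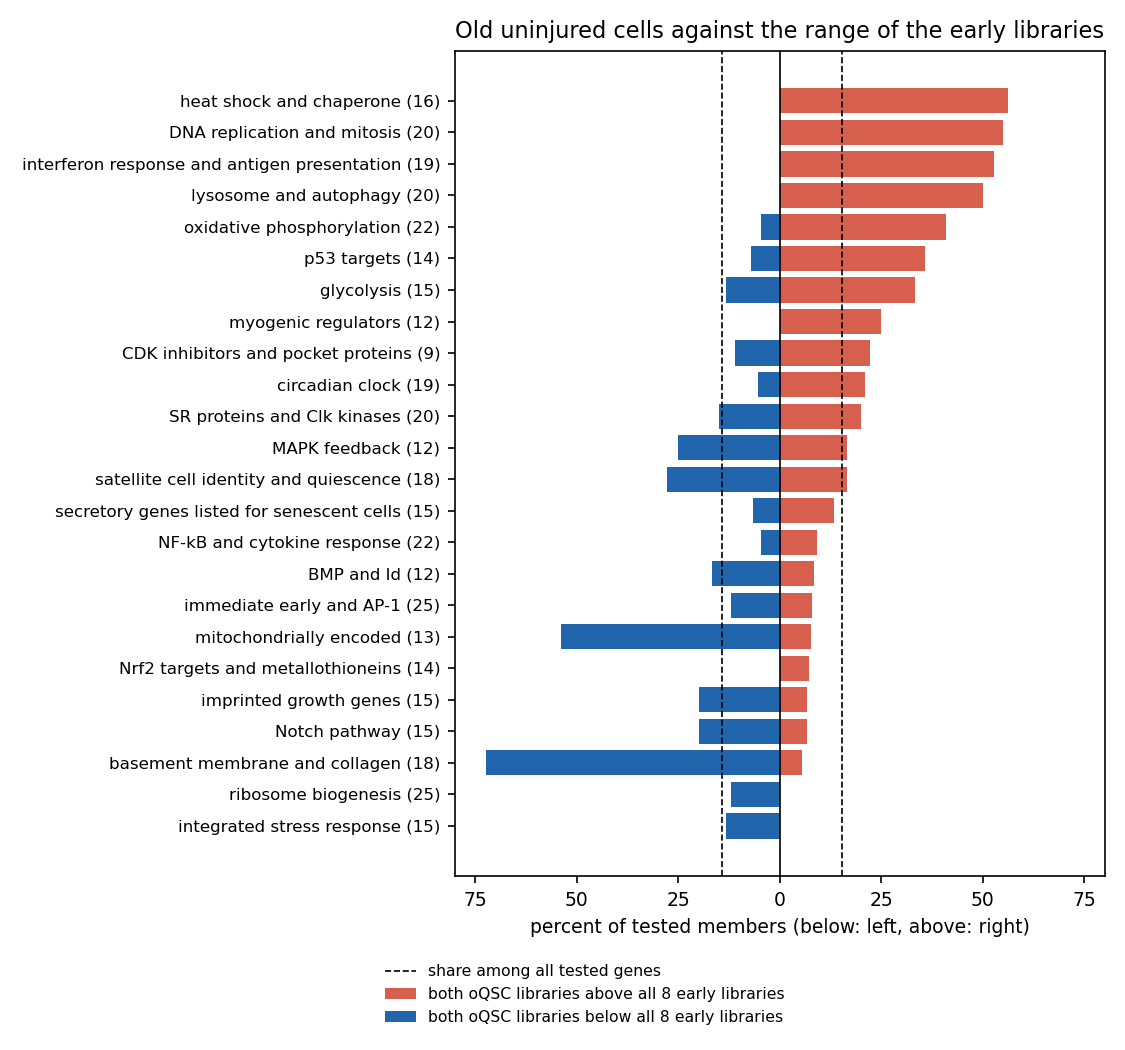
Percent of the tested members of each pathway list (number tested in brackets) for which both oQSC libraries lay above (bars to the right) or below (bars to the left) all 8 early libraries; dashed lines give the shares among all 21209 genes, 15.4% above and 14.3% below. Chaperone, replication, interferon and lysosomal genes extend to the right, and basement membrane and mitochondrially encoded genes to the left, while the immediate early list stays under both dashed lines.

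Some interferon response and antigen presentation genes were higher in oQSC. Of 19 tested members, 7 were higher than in the early mean (4.03% of all genes were) and none was lower. Both oQSC libraries lay above all 8 early libraries for 10 of 19 (15.4% of all genes) and overlapped them for 9 (median log2 difference 0.87). Isg15, Irf1, Irf7 and Tap2 were among the members not called, with log2 differences over the alternatives of -0.19 to 0.33, -0.53 to 0.02, -0.09 to 0.42 and -1.51 to -0.43. Against uninjured cells 11 of 19 were higher in oQSC (12.6% of all genes) and 6 of 19 in the early libraries (8.06%). For Ifit1, Ifit2, Ifit3 and Psmb8 edgeR called no difference between the early and the uninjured libraries, with adjusted p between 0.256 and 0.622.

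Ifit3, an interferon-induced protein that binds with Ifit1-family partners, had 18.7 and 13.3 CPM in oQSC, 1.02 to 4.09 CPM (median 2.88) early and 1.9 and 2.11 CPM uninjured (log2 difference from early 2.58 ± 0.35, adjusted p = 0.0057). Ifit1, which recognises foreign RNA ends, had 29.5 and 24.4 CPM in oQSC, 1.79 to 7.47 CPM (median 4.55) early and 3.52 and 1.39 CPM uninjured (2.60 ± 0.41, adjusted p = 0.00902). Both were above every early and uninjured library. Psmb8, a subunit of the immunoproteasome, had 62.4 and 59.6 CPM in oQSC and 7.36 to 21.9 CPM (median 15.8) early (1.97 ± 0.33, adjusted p = 0.0111). Irf9, an interferon regulatory factor, had 105 and 86.5 CPM in oQSC and 22.8 to 40.9 CPM (median 29.7) early (1.64 ± 0.39, adjusted p = 0.0366). Ifit2 and Ifi27 were also called, with log2 differences of 1.79 and 1.07. No call of the list held without oQSC library 1 or without oQSC library 2, and 3 of the 7 held without 1 h library 1, 1 h library 2 or 2 h library 1.

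The promoters of Ifit1 and Ifit3 are shown as the members with the lowest adjusted p in the list. The 250 bases before the RefSeq starts (GRCm38.p6, plus strand) lie at chr19:34640639-34640888 for Ifit1 and chr19:34583279-34583528 for Ifit3. Capitals mark matches to the interferon-stimulated response element, searched on both strands as TTTC, any 2 bases and TTTC again.

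Ifit1: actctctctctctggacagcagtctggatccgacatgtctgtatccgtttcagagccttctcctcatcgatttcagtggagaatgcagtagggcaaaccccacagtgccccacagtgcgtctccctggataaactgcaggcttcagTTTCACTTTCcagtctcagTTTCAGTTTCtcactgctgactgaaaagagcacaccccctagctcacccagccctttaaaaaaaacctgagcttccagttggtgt

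Ifit3: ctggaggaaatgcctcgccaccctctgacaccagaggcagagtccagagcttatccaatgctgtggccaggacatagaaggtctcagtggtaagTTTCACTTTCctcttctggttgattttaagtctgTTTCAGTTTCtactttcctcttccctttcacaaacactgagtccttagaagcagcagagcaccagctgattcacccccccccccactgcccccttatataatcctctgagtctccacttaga

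Each of the 2 windows held 2 matches. Of the 16 list members with a promoter entry, 7 held at least 1 (B2m, Bst2, Ifit1, Ifit3, Isg15, Oas1a and Stat2), against 2.98% of 32851 promoters. Here too a gene counted if any of its entries matched, while the percentage is over single entries, so the measures are unlike. Of these 7, Ifit1 and Ifit3 were called higher in oQSC, and Bst2 and Oas1a lay above all 8 early libraries without passing the test.

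Markers of immune cells were read beside this list. The 12 macrophage markers summed to 158 and 125 CPM in oQSC, 12 to 139 CPM in the early libraries and 5.42 and 4.05 CPM in the uninjured ones. None of the 11 tested macrophage markers was called between oQSC and the early mean, and 3 of 11 lay above all 8 early libraries (15.4% of all genes did). Itgam, the 1 of the 12 at 0 in oQSC, had log2 differences of -6.62 to -4.89 over the alternatives. Those of Csf1r ran from -0.21 to 1.04 and those of Mrc1 from -0.62 to 2.86. The median log2 difference of the 11 tested macrophage markers from the early mean was 1.52, and 4 were higher in oQSC than in uninjured cells (12.6% of all genes were). Adgre1, which defines macrophages, had 1.15 and 0.622 CPM in oQSC, above an early range of 0 to 0.521 CPM (log2 difference 4.77, adjusted p = 0.0863). Its call appeared in 2 of 19 alternatives. Lyz2, a lysozyme, had 49.3 and 38 CPM in oQSC against 3.88 to 44.1 CPM early (1.52, adjusted p = 0.244), and Cd14 had 78.1 and 59.8 CPM against 0.649 to 44.5 CPM early (3.02, adjusted p = 0.122). Lymphocyte markers summed to 7.03 and 7.57 CPM in oQSC and 2.39 to 9.5 CPM early. Their part in the interferon and cytokine values was not tested. In bulk libraries such as these, fewer cells of a type and less RNA per cell cannot be told apart.

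Both subunits of ribonucleotide reductase and the helicase gene Mcm4 were higher in oQSC than in the early libraries. Of 20 DNA replication and mitosis genes, 3 were higher in oQSC than in the early mean (4.03% of all genes were) and none was lower. Both oQSC libraries lay above all 8 early libraries for 11 of 20 (15.4% of all genes, median log2 difference of the list 1.21). Rrm2, the small subunit of ribonucleotide reductase, which makes deoxynucleotides (12:24708241-24714146 on the plus strand of GRCm38), had 378 and 366 CPM in oQSC, 12.3 to 39.3 CPM (median 21.3) early and 2.53 and 3.15 CPM uninjured. The log2 difference from the early mean was 4.08 ± 0.22 (adjusted p = 0.000155). Rrm1, the large subunit, had 133 and 117 CPM in oQSC, 14.6 to 23.9 CPM (median 18.6) early and 8.95 and 9.76 CPM uninjured (2.76 ± 0.22, adjusted p = 0.000723). Mcm4, part of the replicative helicase, had 150 and 141 CPM in oQSC, 17.8 to 29.7 CPM (median 23.6) early and 7.68 and 6.97 CPM uninjured (2.63 ± 0.21, adjusted p = 0.000723). The groups did not overlap for any of the 3, and their calls held in every alternative, each library left out included. All 3 were also called against each of the 4 early times taken alone, where only 0.226% to 0.58% of genes were higher.

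The other 17 members were not called. Mcm2 had 5.06 and 6.87 CPM in oQSC inside an early range of 2.22 to 8.12 CPM (median 5.13), and Mcm5 had 10.5 and 8.0 CPM inside 3.98 to 15.6 CPM (median 9.44). Cdk1, the mitotic kinase, had 2.71 CPM in each oQSC library against 0 to 1.61 CPM (median 0.483) early, with an adjusted p of 0.222. Mcm2 and Mcm5, which act in the same helicase as Mcm4, thus overlapped the early range while Mcm4 did not. In the other old cells of the same table, scaled over all 30 libraries, Rrm2 had 25.5 and 20.3 CPM in freshly isolated cells (oFISC) and 697 and 692 CPM in cells collected days after injury (oASC), with 391 and 386 CPM in oQSC on that scale.

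A part of the lysosome and autophagy genes was also higher in oQSC. Of 20 members, 5 were higher than in the early mean (4.03% of all genes were) and none was lower. For 10 of 20 oQSC lay above all 8 early libraries (15.4% of all genes), and 10 overlapped them (median log2 difference 0.65). Ctsb, the lysosomal protease cathepsin B, had 1083 and 1128 CPM in oQSC, 291 to 384 CPM (median 344) early and 124 and 150 CPM uninjured (1.70 ± 0.22, adjusted p = 0.0051). Map1lc3b, the LC3 protein of autophagosomes, had 1870 and 1480 CPM in oQSC, 282 to 571 CPM (median 471) early and 47.4 and 71.2 CPM uninjured (1.96 ± 0.31, adjusted p = 0.00892). Both stepped from uninjured to early to oQSC without overlap. Atg12 and Becn1, which act in autophagosome formation, and Atp6v0d1, a subunit of the proton pump, were the other calls, with log2 differences of 1.3, 1.35 and 1.26. For Atp6v0d1 the early against uninjured difference had an adjusted p of 0.882. None of the 5 calls held without oQSC library 1 or without oQSC library 2.

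Genes of the respiratory chain were read by the genome that encodes them, without a test between both lists. Of 22 nuclear oxidative phosphorylation genes, 5 were higher in oQSC than in the early mean (4.03% of all genes were) and none was lower. For 9 of 22 oQSC lay above all 8 early libraries (15.4% of all genes), and 12 overlapped them (median log2 difference 0.28). Ndufb8, of complex I, had 275 and 196 CPM in oQSC, 61.7 to 84.7 CPM (median 68.0) early and 35.7 and 48.1 CPM uninjured (1.75 ± 0.25, adjusted p = 0.00668). Uqcrc1, of complex III, had 548 and 451 CPM in oQSC and 104 to 178 CPM (median 154) early (1.71 ± 0.26, adjusted p = 0.00801). Sdha and Sdhb of complex II and Ndufa1 of complex I were the other calls, with log2 differences of 1.52, 1.53 and 1.10. Cox4i1 and Atp5h had log2 differences of -0.15 and 0.08, so the calls did not extend to every complex.

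Of the 13 mRNAs encoded by the mitochondrial genome, 4 were lower in oQSC than in the early mean (3.82% of all genes were) and 1 was higher. Both oQSC libraries lay below all 8 early libraries for 7 of 13 (14.3% of all genes, median log2 difference of the list -0.97). The lower genes encode complex I subunits. mt-Nd3 had 9.29 and 9.95 CPM in oQSC, 49.0 to 121 CPM (median 89.7) early and 191 and 114 CPM uninjured (-3.12 ± 0.42, adjusted p = 0.00541). mt-Nd4l had 26.1 and 28.8 CPM in oQSC, 66.9 to 147 CPM (median 117) early and 312 and 208 CPM uninjured (-2.01 ± 0.31, adjusted p = 0.00802). mt-Nd2 and mt-Nd6 had log2 differences of -1.44 and -2.18. The higher gene was mt-Cytb, of complex III, with 6802 and 5023 CPM in oQSC, 2010 to 3391 CPM (median 2911) early and 4647 and 3575 CPM uninjured (1.08 ± 0.25, adjusted p = 0.0315). None of the calls of either respiratory list held without oQSC library 1 or without oQSC library 2.

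Basement membrane and collagen genes were the list with the most calls in the lower direction. Of 18 members, 8 were lower in oQSC than in the early mean (3.82% of all genes were) and none was higher. Both oQSC libraries lay below all 8 early libraries for 13 of 18 (14.3% of all genes, median log2 difference of the list -1.63). Against uninjured cells 10 of 18 were lower in oQSC (11.7% of all genes were), and 4 of 18 were lower in the early libraries (8.85% of all genes).

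Col5a1, a fibril-regulating collagen chain, had 9.42 and 14.6 CPM in oQSC, 69.2 to 103 CPM (median 90.0) early and 214 and 144 CPM uninjured (log2 difference from early -2.88 ± 0.38, adjusted p = 0.0051). Its relative Col5a3 had 10.8 and 16.6 CPM in oQSC, 52.3 to 187 CPM (median 86.3) early and 95.2 and 96.0 CPM uninjured (-2.80 ± 0.53, adjusted p = 0.0166). Hspg2, the basement membrane proteoglycan perlecan, had 14.6 and 24.4 CPM in oQSC, 65.3 to 126 CPM (median 104) early and 678 and 563 CPM uninjured (-2.36 ± 0.42, adjusted p = 0.0144). Col5a1 and Hspg2 thus stepped down from uninjured to early to oQSC without overlap, while for Col5a3 the uninjured values lay inside the early range. Lama5, a laminin chain, had 9.55 and 12.3 CPM in oQSC and 31.2 to 60.8 CPM (median 41.3) early (-1.94 ± 0.29, adjusted p = 0.00723). Col4a1, a main chain of basement membrane collagen, had 85.9 and 98.0 CPM in oQSC, 257 to 448 CPM (median 292) early and 284 and 196 CPM uninjured (-1.80 ± 0.35, adjusted p = 0.0192). Col4a2, Lamb2 and Col1a1 were the other calls, with log2 differences of -1.96, -1.28 and -2.42. Nid1 went the other way, with 56.1 and 54.8 CPM in oQSC above an early range of 19.4 to 47.6 CPM (median 25.9) and an adjusted p of 0.138. Col5a1 was called against each early time taken alone. No call of the list held without oQSC library 1 or without oQSC library 2.

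**Figure D3:**
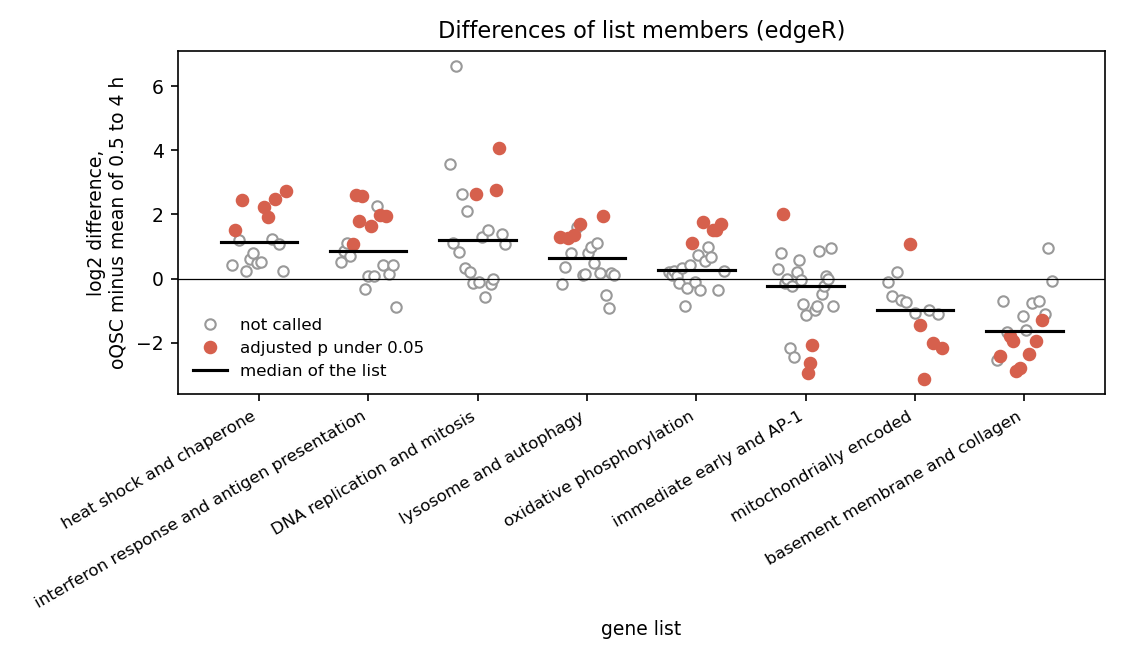
Log2 difference of oQSC from the mean of 0.5 to 4 h (vertical axis) for each tested member of 8 gene lists (horizontal axis, members in alphabetical order); filled points have an adjusted p under 0.05 by edgeR and bars give the list median. The chaperone, interferon and replication medians are 1.14, 0.87 and 1.21, the mitochondrially encoded and basement membrane medians -0.97 and -1.63, and the immediate early median is -0.23.

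Fibroblast-type markers were read beside the collagen list. Of 12 fibro-adipogenic and fibroblast markers, 4 were higher in oQSC than in the early mean (Dcn, Lum, Smoc2 and Pdgfra), 1 was lower (Col1a1), and none was at 0 in oQSC. The shares over all genes were 4.03% higher and 3.82% lower. Dcn, the small proteoglycan decorin, had 531 and 437 CPM in oQSC, 51.7 to 186 CPM (median 89.3) early and 16.0 and 8.09 CPM uninjured (2.24 ± 0.39, adjusted p = 0.0127). Pdgfra, the receptor that defines fibro-adipogenic progenitors, had 3.85 and 4.97 CPM in oQSC, 0.436 to 2.14 CPM (median 0.661) early and 0 in both uninjured libraries. The summed level of the 12 markers was 1559 and 2393 CPM in oQSC, inside the early range of 1256 to 2582 CPM. It was 1329 and 1152 CPM in uninjured cells. The early libraries with the lower r with oQSC had 2243 to 2582 CPM, and their partners 1256 to 1581 CPM. Tenocyte markers split the same way, 1486 to 2160 against 311 to 607 CPM, with 1893 and 1856 CPM in oQSC. Pericyte and smooth muscle markers did too, 515 to 651 against 236 to 340 CPM, with 331 and 363 CPM in oQSC. Endothelial markers summed to 157 and 198 CPM in oQSC and 90.9 to 341 CPM early, without such a split. None of the 14 was called (7.85% of all genes were). The glial markers summed to 557 and 540 CPM in oQSC, of which Pmp22 alone gave 538 and 512 CPM. Early they summed to 151 to 338 CPM and split as the fibroblast markers did, 228 to 338 against 151 to 179 CPM. The calls among these markers were lost without oQSC library 1 or without oQSC library 2, and their part in the other results was not tested.

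Satellite cell identity genes were checked against the label. The 8 satellite cell markers summed to 4022 and 4324 CPM in oQSC, 2374 to 5026 CPM early and 3365 and 3428 CPM uninjured. All 8 had counts in oQSC, but Vcam1, an adhesion receptor, gave 2395 and 2788 CPM of the sum. By member, 1 was above all 8 early libraries, 1 below and 6 overlapped them (15.4%, 14.3% and 70.3% of all genes). Against uninjured cells 1 was higher and 2 were lower (12.6% and 11.7% of all genes). Pax7, the transcription factor that defines the lineage, had 81.8 and 68.9 CPM in oQSC, 67.0 to 921 CPM (median 346) early and 1717 and 1504 CPM uninjured. It was lower in oQSC than in uninjured cells (log2 difference -4.42, adjusted p = 0.0453) and did not pass the test against the early mean (-2.43, 95% interval -4.98 to 0.12, adjusted p = 0.225). Of the early libraries, 4 h library 2, at 67.0 CPM, lay below both oQSC libraries.

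Myod1, the factor of activated myoblasts, had 1036 and 1456 CPM in oQSC, 72.3 to 2085 CPM (median 825) early and 40.8 and 49.2 CPM uninjured. The early values fell far apart within each time: library 1 of 0.5 h, 1 h and 4 h and library 2 of 2 h had low Myod1 and high Pax7, and the other library of each time the reverse. The difference of oQSC from the early mean therefore had a wide error (0.38, 95% interval -2.61 to 3.37, adjusted p = 0.902). Myf5, the early myogenic factor, had 817 and 604 CPM in oQSC inside 208 to 1174 CPM (median 723) early. Myog, which drives differentiation, had 26.1 and 28.9 CPM in oQSC above an early range of 0.478 to 5.64 CPM (median 2.67), with 30.7 and 9.04 CPM in uninjured cells (3.37 ± 0.85, adjusted p = 0.0428). The fusion genes Mymk, with 1.15 and 3.93 CPM, and Mymx, with 0.923 and 0.65 CPM, were called higher too, at low levels. Mymx had no count in any early or uninjured library and so passed the count filter through oQSC alone, which leaves its call no independent weight. A floor of 3 counts over the 8 early libraries made it at least 56.9-fold higher in oQSC. These 3 calls were lost without oQSC library 1 or 2 and, for at least 2 of them, without any 1 early library.

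Of 18 identity and quiescence genes, 2 were higher in oQSC than in the early mean (Bmp4 and Calcr) and 1 was lower (Itga7). Among all genes 4.03% were higher and 3.82% lower. Calcr, the calcitonin receptor of quiescent satellite cells, had 301 CPM in each oQSC library, 87.9 to 168 CPM (median 141) early and 145 and 174 CPM uninjured (1.22 ± 0.29, adjusted p = 0.0367). Itga7, the laminin-binding integrin used to sort satellite cells, had 74.7 and 99.0 CPM in oQSC, 200 to 305 CPM (median 233) early and 433 and 340 CPM uninjured (-1.49 ± 0.30, adjusted p = 0.02). The 2 markers thus moved in opposite directions in oQSC, and neither call held without oQSC library 1 or 2. The Calcr call was lost in 11 of 20 alternatives and the Itga7 call in 2.

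Notch genes were read as regulators of quiescence. Of 15 tested members, 1 was lower in oQSC than in the early mean and none was higher. The early range was overlapped for 11 of 15. These shares were near those of all genes (3.82% lower and 70.3% overlapping). Against uninjured cells 5 were lower and 1 was higher in oQSC (11.7% and 12.6% of all genes were). Notch3 had 45.8 and 66.2 CPM in oQSC, 50.3 to 271 CPM (median 174) early and 1772 and 1572 CPM uninjured. Notch1 had 52.1 and 72.2 CPM in oQSC, 78.3 to 122 CPM (median 97.8) early and 847 and 637 CPM uninjured. Both receptors were lower in oQSC than in uninjured cells (adjusted p = 0.00764 and 0.0014) and lower in early than in uninjured cells (adjusted p = 0.0063 and 0.000668). The called gene was the ligand Dll1, with 2.61 and 5.2 CPM in oQSC and 11.6 to 34.2 CPM (median 14.0) early (-2.14 ± 0.49, adjusted p = 0.0313). Its call was lost in 8 of 20 alternatives, those without oQSC library 1 or 2 among them.

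The remaining lists had 1 or a few calls, where 4.03% of all genes were called higher and 3.82% lower. Among SR proteins and Clk kinases, which govern splicing, the kinases Clk3 and Clk4 were higher (1.31 and 1.22) and Luc7l2 was lower (-1.59). Bhlhe40, a repressor of clock genes, had 451 and 460 CPM in oQSC and 46.0 to 213 CPM (median 153) early (1.68 ± 0.38, adjusted p = 0.0301). Meg3, an imprinted long non-coding RNA, had 353 and 437 CPM in oQSC, 1244 to 2350 CPM (median 1642) early and 1297 and 837 CPM uninjured (-2.10 ± 0.37, adjusted p = 0.0142). Of 15 glycolysis genes, Eno1 was higher (1.54) and Gapdh lower (-1.22), though pseudogene copies of Gapdh may have shared its reads. The chemokine Ccl8 was the only call of 15 secretory genes listed for senescent cells, a share near the 7.85% of all genes. These calls were lost without oQSC library 1 or 2. Over 20 alternatives the call was lost in 12 for Gapdh, 9 for Luc7l2 and 8 for Ccl8, and in 2 or 3 for the others.

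The 12 largest rises and 12 largest falls between oQSC and the early mean were taken by log2 difference among called genes with at least 20 CPM on average in the higher group and no overlap. Rhoh, a GTPase-deficient small G protein best known in blood cells (5:65861213-65896700, plus strand), had 1267 and 1122 CPM in oQSC, 36.0 to 75.5 CPM (median 41.0) early and 17.5 and 16.1 CPM uninjured. Its log2 difference from the early mean was 4.65 ± 0.28 (adjusted p = 0.000155), it was called against each early time alone, and it was called in every alternative. Cyp26a1, which degrades retinoic acid, had 961 and 958 CPM in oQSC, 2.06 to 32.3 CPM (median 15.2) early and 0 and 1.17 CPM uninjured (6.00 ± 0.72, adjusted p = 0.00428). Kcnk1, a potassium channel subunit, had 121 and 109 CPM in oQSC and 0 to 3.04 CPM (median 1.24) early (8.46 ± 0.78, adjusted p = 0.00251). Both oQSC libraries lay far above the highest early library for each of the 3.

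A further group of the largest rises encodes secreted proteins. Ccl11, the eosinophil chemokine eotaxin, had 757 and 535 CPM in oQSC, 7.96 to 78.6 CPM (median 29.1) early and 1.08 and 1.35 CPM uninjured (4.28 ± 0.48, adjusted p = 0.00311). Sfrp4, a secreted Wnt antagonist, had 95.8 and 97.1 CPM in oQSC and 3.94 to 12.6 CPM (median 4.99) early (3.98 ± 0.38, adjusted p = 0.00183). Il33, an alarmin cytokine that acts after release from damaged cells, had 142 and 103 CPM in oQSC, 0.793 to 18.2 CPM (median 7.69) early and 0 in both uninjured libraries (4.04 ± 0.95, adjusted p = 0.04). Serpina3n and Serpina3m, serine protease inhibitors of 1 gene cluster whose related copies may share reads, and the kininogen Kng2 were also among them, with log2 differences of 4.05, 6.91 and 6.54. Calhm5 (4.60) and Rrm2 complete the named genes together with Igkv4-57, an immunoglobulin kappa variable segment. Igkv4-57 had 27.1 and 21.8 CPM in oQSC and no count in the activation table, at least 1779-fold higher in oQSC on the floor of 3 counts over the 8 early libraries. It passed the count filter through oQSC alone, as did 19 tested genes without a count in the activation table, of which 18 were called, so its call carries no independent weight. On the 30-library scale it had 0.386 and 0.0871 CPM in oFISC and 0 in both oASC libraries. The lymphocyte markers given above stood at 7.03 and 7.57 CPM, and their part in this value was not tested.

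The same genes were read in the other old libraries, which share the oQSC table. On the 30-library scale Rhoh had 1308 and 1184 CPM in oQSC, 88.5 and 50.5 CPM in oFISC and 3.83 and 6.49 CPM in oASC. Cyp26a1 had 992 and 1010 CPM in oQSC, 204 and 196 CPM in oFISC and 4.82 and 2.62 CPM in oASC. Ccl11 had 781 and 564 CPM in oQSC, 68.0 and 110 CPM in oFISC and 4.6 and 7.17 CPM in oASC. For these 3 genes both oFISC and both oASC libraries lay below both oQSC libraries.

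**Figure D4:**
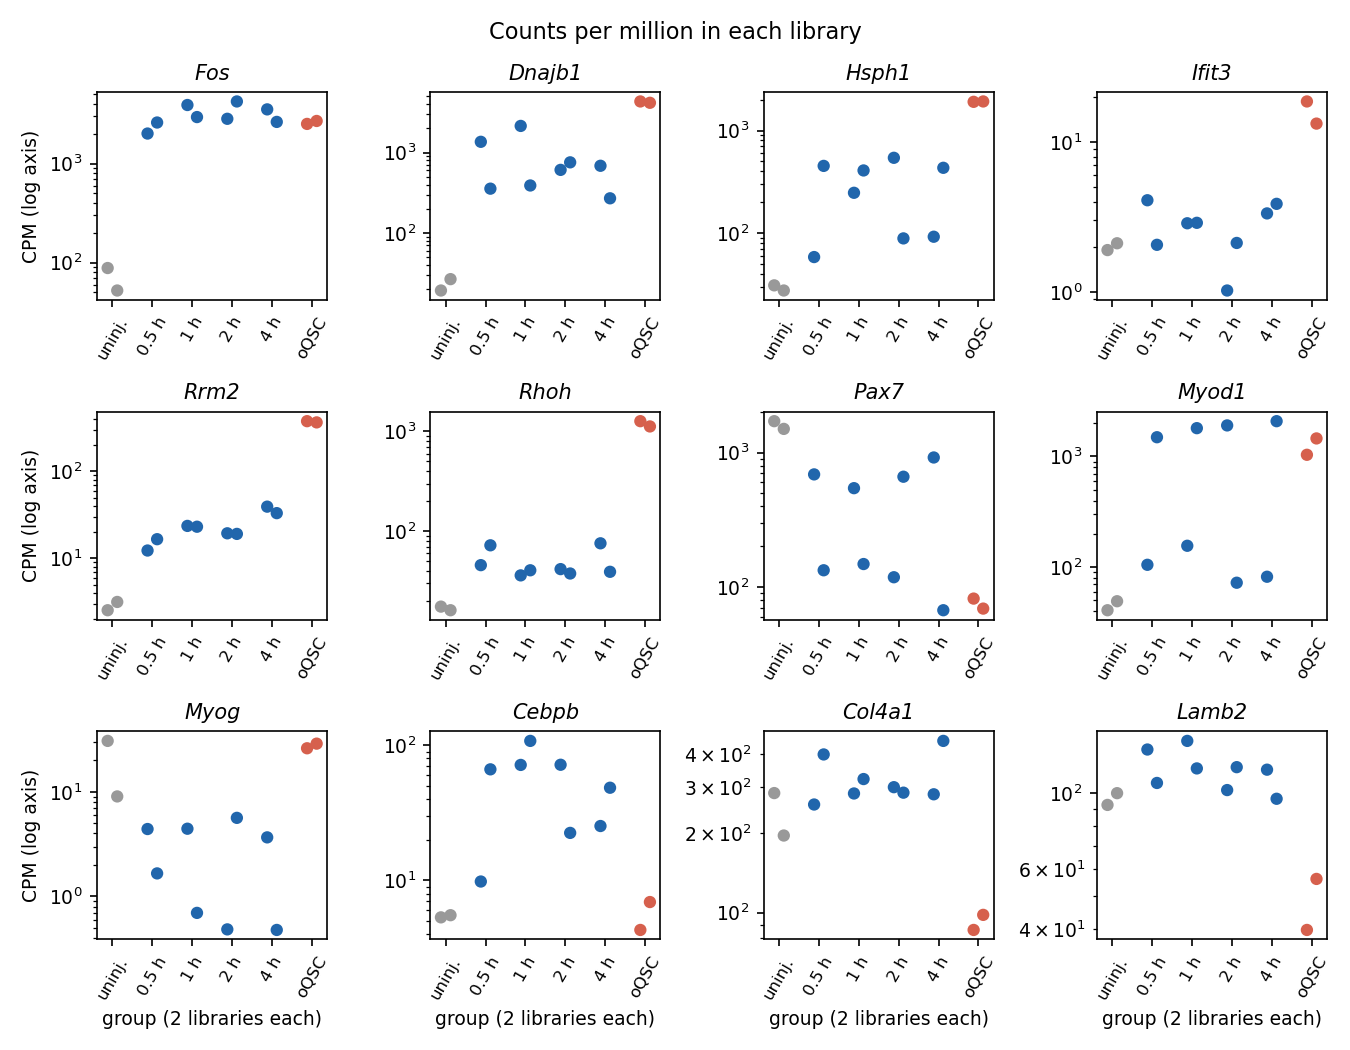
CPM of 12 genes (log axes) in the 2 libraries of each group: uninjured (grey), 0.5 to 4 h after injury (blue) and oQSC (red). Fos in oQSC lies inside the early range of 2012 to 4243 CPM, Dnajb1, Hsph1, Ifit3, Rrm2, Rhoh and Myog lie above all 8 early libraries, Cebpb, Col4a1 and Lamb2 lie below them, and Pax7 and Myod1 split within each early time.

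The largest falls included transcription regulators and signalling inhibitors. Cebpb, a C/EBP factor of the acute response, had 4.3 and 6.92 CPM in oQSC, 9.82 to 108 CPM (median 57.6) early and 5.33 and 5.53 CPM uninjured (-3.14 ± 0.81, adjusted p = 0.0469). Rgs16, which shortens G protein signals, had 1.3 and 4.18 CPM in oQSC, 21.6 to 60.1 CPM (median 31.8) early and 6.6 and 3.1 CPM uninjured (-3.72 ± 0.61, adjusted p = 0.0101). Together with Dusp2, these were genes at about the uninjured level in oQSC that were higher in early cells. Sun2, a linker of the nuclear envelope to the cytoskeleton, differed in pattern, with 6.75 and 11.1 CPM in oQSC, 44.5 to 109 CPM (median 76.9) early and 82.6 and 114 CPM uninjured (-3.13 ± 0.54, adjusted p = 0.0122). Ap2a1, an adaptor of clathrin coats, had 1.88 and 3.39 CPM in oQSC, 14.9 to 28.8 CPM (median 21.9) early and 32.1 and 23.7 CPM uninjured. Chtf8, Phf1, Lypla2 and Fastk were also called lower in oQSC than in early and in uninjured cells, with log2 differences from the early mean of -4.13, -3.14, -3.14 and -3.00. The calls of Cebpb, Lypla2 and Fastk were lost in 9, 9 and 10 of 20 alternatives. Their log2 differences ran from -3.48 to -2.66, -4.17 to -2.53 and -3.72 to -2.51. The calls of Rgs16, Sun2, Ap2a1 and Chtf8 were lost in 2 alternatives each and that of Phf1 in 3.

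Another 3 of the largest falls were read beside features of the tables. Qser1 (2:104754795-104816760, minus strand) had no count in either oQSC library, 15.3 to 27.1 CPM (median 22.7) early and 42.8 and 47.7 CPM uninjured, at least 505-fold higher in the early libraries on the floor of 3 counts over both oQSC libraries. It also had no count in both oFISC libraries and oASC library 1, and 39.5 CPM in oASC library 2. Mir703, the model of a microRNA hairpin, had 1.97 and 1.58 CPM in oQSC and 20.7 to 37.0 CPM (median 27.2) early (-3.94 ± 0.35, adjusted p = 0.00134), and it stayed at 2.01 to 5.28 CPM in the other 4 old libraries. Lars2, the mitochondrial leucyl-tRNA synthetase, had 56.2 and 100 CPM in oQSC, 436 to 1743 CPM (median 652) early and 15032 and 8743 CPM uninjured (-3.31 ± 0.49, adjusted p = 0.0069). Its order over the 3 groups was that of the ribosomal RNA share, which was 0.393% and 0.541%, 4.53% to 11.6%, and 49.7% and 37.3%. The part of the table and of the ribosomal share in these values was not tested.

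The genes with the largest early change from uninjured cells were then placed. Of the 10 largest early rises, oQSC overlapped the early range for 8 (Rrad, Gdf15, Rnd1, Atf3, Sphk1, Cxcl1, Csrnp1 and Ier5), lay above it for 1 (Rgcc) and below it for 1 (Adm). Rrad, a small GTPase, had 70.3 and 73.5 CPM in oQSC, 13.6 to 81.3 CPM (median 35) early and 0 in both uninjured libraries. Gdf15, a stress-induced cytokine, had 24.3 and 20.8 CPM in oQSC, 12 to 65.9 CPM (median 18.9) early and 0 uninjured. On the floor of 3 counts over the uninjured libraries, Rrad and Gdf15 were at least 800-fold and 249-fold higher in oQSC, and at least 410-fold and 253-fold higher in the early libraries. Rgcc, a cell cycle regulator, had 279 and 217 CPM in oQSC against 5.87 to 98.8 CPM early, and Adm, the vasodilator adrenomedullin, had 18.7 and 17.7 CPM against 32.3 to 91.0 CPM early.

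Of the 10 largest early falls, oQSC lay below all 8 early libraries for 5 (Dyrk1b, Lars2, Zfhx2os, Dagla and Srcap) and overlapped them for 5, among them Prr12, Ryr3, Tmem94 and Rtl1. Srcap, a chromatin remodelling ATPase, had 12.5 and 11.8 CPM in oQSC, 42.4 to 80.7 CPM early and 766 and 654 CPM uninjured. Ryr3, a calcium release channel, had 49.7 and 64.3 CPM in oQSC, 42.0 to 202 CPM early and 1626 and 1591 CPM uninjured. Rtl1, which overlaps an antisense transcript and is uncertain without strand, had 9.74 and 9.75 CPM in oQSC, 2.95 to 12.7 CPM early and 88.4 and 51.3 CPM uninjured. These genes were chosen on the early libraries, so their place is a description without a test.

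Set against single times, oQSC differed from 0.5 h in 179 genes (0.844%), from 1 h in 457 (2.15%), from 2 h in 328 (1.55%) and from 4 h in 362 (1.71%), with more lower than higher calls at each time (0.618%, 1.57%, 1.05% and 1.22% of genes lower). Chaperone genes had median log2 differences of 1.12, 0.70, 1.20 and 1.3 from 0.5, 1, 2 and 4 h, and basement membrane genes -1.73, -1.69, -1.56 and -1.37. Other lists varied more: the medians were 0.08, -0.64, -0.55 and -0.24 for immediate early genes and -0.51, -1.29, -0.93 and -1.09 for mitochondrially encoded genes. Without oQSC library 1 or library 2 these single-time comparisons called between 1 and 7 genes each, and without a library of the early time itself between 1 and 17. Whether oQSC lay nearer to one early time than to another was not resolved with 2 libraries a group.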

How the data were processed

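RNA libraries were made by SMART-Seq v4, a full-length cDNA method for low input, with Tn5 fragmentation and paired-end DNBSEQ sequencing, per the labels' protocols. Trimmomatic 0.36, HISAT2 2.1.0, SAMtools 1.3, StringTie 1.3.3 and the mm10 build are named in the submitters' processing notes. The authors deposited whole-number read counts per gene. For the counting program, its strand setting and its annotation, the sources used here give nothing. All count tables of the series were joined by Ensembl identifier without version (55154 matched over all of them). Gene names and coordinates are from GENCODE M21 (GRCm38).

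The 12 libraries were fitted together with edgeR 4.0.16 in R 4.3.3 (filterByExpr with a minimum count of 10 and a total of 15, TMM scaling, quasi-likelihood tests, Benjamini-Hochberg adjustment over 21209 genes, 1 mean per group). The early mean weights the 4 times equally. The edgeR fit was tested on simulated counts for the contrast of oQSC with the early mean, with an outcome not reported here. The simulated libraries were drawn independently, without the split seen among the early libraries, so no conclusion on these data is drawn from it. DESeq2 1.42.0, other scalings, filters and fits, and each library left out in turn were the alternatives. Named genes were the 12 largest rises and falls as stated in the text, the 10 largest early rises and falls, up to 4 list members with the smallest adjusted p, and a panel of 28 genes. Other genes named were chosen after their values were seen. Members and lists were chosen with earlier results of these data known. Some genes of the lists are not reported here.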

Additional observations from a re-analysis of the deposited data

How the results depend on the processing

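Against the early mean (1664 calls), DESeq2 called 3692 genes, a fit over all 30 libraries 4916, the 8 early libraries as 1 group 3032, and no filter on low counts 2736 (2011 higher and 725 lower). Leaving out 1 library gave 23 to 1358 calls. Against 0.5 h (179), 1 h (457), 2 h (328) and 4 h (362), DESeq2 called 1787, 2353, 2317 and 2374 genes, all 30 libraries 723, 1055, 944 and 1087, and the 10 libraries alone 18, 134, 78 and 120. Leaving out 1 library gave 1 to 17, 1 to 12, 1 to 6 and 1 to 6 calls. DESeq2 called 7811 genes for oQSC against uninjured and 6345 for early against uninjured, and leaving out 1 library gave 1217 to 2066 and 285 to 4071 calls.

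The difference of library 1 from library 2 had r of 0.57 to 0.64 among 0.5, 1 and 4 h. It had r of -0.69 to -0.59 between these and 2 h, and about 0 with oQSC. The early libraries thus shared a difference across times, with the library numbers the other way round at 2 h. The main fit has no term for this difference. A block by replicate number uses the numbers as given, so it does not model the difference in full. With the replicate block, 1122 genes were called against the early mean, 17, 140, 74 and 104 against 0.5, 1, 2 and 4 h, 4529 for oQSC and 2821 for early against uninjured. Of the 90 called list and named genes, 70 were called with the block, 69 in the 10-library fit and 89 by DESeq2, and none changed direction under any alternative that gave a value. Leaving out genes with no count in a whole table, an alternative chosen after seeing the data, gave 1636 calls. With 2 libraries a group, depth and library number limit what can be seen.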
